A study of Mus musculus with 16 samples.

Results

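The collagen genes encode the chains of the collagens, the structural proteins of the extracellular matrix. They were taken as every gene in the deposited count table whose Ensembl identifier belongs to a mouse protein-coding gene with a symbol made of Col, a type number, a and a chain number. The rule itself uses no measured value, but it was chosen with earlier results of these data known. This gave 44 of the 32697 genes in the table. They were sorted by known function into 11 fibrillar collagens, 6 basement membrane collagens of type IV, 6 beaded filament collagens of type VI, 4 network and anchoring fibril collagens, 9 fibril-associated collagens, 4 transmembrane collagens, 2 multiplexins and 2 others. A filter on low counts was passed by 30 of the 44, which were tested, and the other 14 are given by their counts.

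Collagen chains wind around each other into a helix in the endoplasmic reticulum, where hydroxylases and chaperones modify and fold them, and secreted procollagens are then trimmed and cross-linked. Fibrillar collagens bear tension, type IV collagens form the sheets under epithelium and endothelium, type VI collagens form beaded filaments around cells, and fibril-associated collagens and multiplexins tie these structures together. In tumours fibroblasts are known as the main source of fibrillar collagen, and endothelial cells and pericytes add type IV collagen; dendritic cells are not known for making fibrillar collagen.

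RNA was sequenced in 16 libraries, described in the series as type 1 conventional dendritic cells (cDC1s) sorted from tumours of YUMM1.7, a mouse melanoma line. There were 4 groups of 4 libraries: Irf1-deleted (genotype label IRF1deltaXCR1), Irf1 floxed controls (IRF1FF), Ikbkb-deleted (IKKbdeltaXCR1) and Ikbkb floxed controls (IKKbFF), so that every library came from a host with a floxed allele and an engrafted tumour. IRF1 is a transcription factor of the interferon response and IKKb, the product of Ikbkb, a kinase of the NF-kB pathway. The genotype labels tie the deletions to XCR1, which marks cDC1s, so other cells are meant to keep the gene. The growth notes name female Ikbkb mice alone, and an age for the mice was not found in the labels. The 8 Irf1 libraries (GTGT9 to GTGT16) and the 8 Ikbkb libraries (GTGT1 to GTGT8) form 2 sets, and a difference between the sets cannot be told apart from a difference between the floxed alleles. Nothing in the labels ties replicates to separate mice, and each p-value then reflects the spread among libraries alone, which may be technical.

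Libraries held 16478671 to 27433818 counts, 18468 to 22900 genes with a count and 0.699% to 3.15% mitochondrial counts. The 8 cDC1 markers, such as Xcr1 and Clec9a, summed to between 328 and 4216 CPM (TMM-scaled counts relative to library size). Irf8 gave the largest part of that sum, at 442 ± 233 CPM in the Irf1 set and 937 ± 910 CPM in the Ikbkb set. Clec9a had 8.99 ± 5.50 CPM in the Irf1 set and 21.9 ± 23.5 CPM in the Ikbkb set (SD, n = 8 each). The sum does not show how much RNA came from cDC1s in each library. Markers of other cells were counted too. The 8 macrophage markers summed to 2978 to 13850 CPM, the 10 fibroblast markers to 736 to 2480 CPM and the 8 endothelial markers to 19.5 to 174.5 CPM, while 3 of the 8 melanoma markers passed the filter. Counted over the whole gene, Irf1 had 166 ± 90.5 CPM in the Irf1-deleted libraries and 199 ± 61.9 CPM in the Irf1 controls, and Ikbkb had 37.4 ± 7.25 CPM in the Ikbkb-deleted libraries and 64.8 ± 37.4 CPM in the Ikbkb controls (SD, n = 4 each). Neither targeted gene was called by edgeR, and a count over the whole gene does not check the loss of single exons. In such mixed bulk RNA, fewer cells of a type and less RNA per cell cannot be told apart.

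Collagen transcripts were abundant, and a few genes gave most of them. Levels are compared between genes as CPM per kilobase of merged exons (CPM/kb), with means and SD over the 16 libraries. Col3a1, the chain of type III collagen in soft and healing tissue, was highest at 478 ± 354 CPM/kb, followed by Col1a2 at 248.5 ± 133 CPM/kb, a chain of type I collagen, the main collagen of connective tissue. Col3a1 exceeded Col1a2 in 16 of 16 libraries. Col6a1, a chain of the type VI filaments, stood at 210.0 ± 136 CPM/kb and Col1a1, the other type I chain, at 209.7 ± 126 CPM/kb. These neighbours did not differ beyond their spread, since Col6a1 was the higher in 7 of 16 libraries. Below them came Col18a1, a multiplexin whose end fragment is endostatin, at 104 ± 65.2 CPM/kb, Col6a2 at 77.7 ± 52.2 CPM/kb and Col5a1, which starts and narrows type I fibrils, at 71.4 ± 51.3 CPM/kb. Col6a2 was above Col5a1 in 10 of 16 libraries, so their order was not settled either.

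The middle of the order held chains of several classes. Col4a1, the main basement membrane chain, had 47.6 ± 42.8 CPM/kb, Col5a2 41.5 ± 31.0 CPM/kb and Col6a3 39.3 ± 30.9 CPM/kb, and Col4a1 was above Col5a2 in 9 of 16 libraries. The fibril-associated Col16a1 had 28.9 ± 21.5 CPM/kb, Col4a2, the partner of Col4a1, 26.4 ± 22.8 CPM/kb and Col8a1, a network collagen of vessels and cornea, 21.2 ± 5.75 CPM/kb. Of these, Col8a1 varied least between libraries: its highest value was 2.40 times its lowest, against 33.7 times for Col4a2 and 9.10 times for Col3a1. The order depends on the length used, since Col1a1 was the third and Col6a1 the fourth when the longest transcript replaced the merged exons.

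The loci are given on the mm10 build with GENCODE M21. Col3a1 (ENSMUSG00000026043, chromosome 1, 45311538 to 45349706, plus strand) and Col5a2 (ENSMUSG00000026042, chromosome 1, 45374321 to 45503282, minus strand) are neighbours on opposite strands. Col4a1 (ENSMUSG00000031502, chromosome 8, 11198423 to 11312826, minus strand) and Col4a2 (ENSMUSG00000031503, chromosome 8, 11312805 to 11449287, plus strand) start head to head and overlap by 22 bp. Col15a1 (ENSMUSG00000028339) lies on chromosome 4, 47208161 to 47313167, plus strand. No source used here gives the strand setting of the counting, so reads from opposite strands cannot be told apart where genes overlap. Among overlaps with protein-coding genes this touches most Col18a1, which overlaps Slc19a1 over 8825 bp, and Col10a1, which lies wholly inside Nt5dc1 (7105 bp). Other annotated genes on the opposite strand overlap further members. Examples are Gm15419 with Col4a2 (18707 bp), Gm15418 with Col4a1 (6081 bp) and Gm13372 with Col5a1 (5021 bp). These lengths are of whole gene spans, introns included.

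The part of promoter elements in the set difference described below was not tested, but 4 promoters were looked at for common elements. They were chosen after the values were seen: Col3a1 is the most abundant member, Col5a1 and Col6a3 are called members of their classes with p-values among the lowest, and Col8a1 had the smallest called difference. Each sequence is the 250 bases before the RefSeq gene start on the coding strand of GRCm38.p6, at chr1:45311288-45311537 on the plus strand for Col3a1, chr2:27886175-27886424 on the plus strand for Col5a1, chr1:90843972-90844221 on the minus strand for Col6a3 and chr16:57754738-57754987 on the minus strand for Col8a1. Capitals mark the TATA box, spelled TATAAA, the CCAAT box, spelled as it is named, and the GC box, spelled GGGCGG, each searched on both strands and no match overlaps another in the 4 windows.
Col3a1: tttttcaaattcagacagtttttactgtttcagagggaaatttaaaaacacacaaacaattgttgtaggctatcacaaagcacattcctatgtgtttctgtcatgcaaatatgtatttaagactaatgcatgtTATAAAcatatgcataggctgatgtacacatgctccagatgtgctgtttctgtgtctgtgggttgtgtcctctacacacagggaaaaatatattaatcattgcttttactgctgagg
Col5a1: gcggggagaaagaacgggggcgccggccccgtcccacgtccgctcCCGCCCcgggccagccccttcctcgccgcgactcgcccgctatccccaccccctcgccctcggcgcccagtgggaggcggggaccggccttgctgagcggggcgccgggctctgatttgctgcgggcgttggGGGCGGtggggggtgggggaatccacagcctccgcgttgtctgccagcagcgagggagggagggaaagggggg
Col6a3: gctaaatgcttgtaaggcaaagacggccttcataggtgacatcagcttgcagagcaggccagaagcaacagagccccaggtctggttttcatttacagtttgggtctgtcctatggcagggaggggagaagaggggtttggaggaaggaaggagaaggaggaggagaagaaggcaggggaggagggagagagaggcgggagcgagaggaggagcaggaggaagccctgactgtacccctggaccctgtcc
Col8a1: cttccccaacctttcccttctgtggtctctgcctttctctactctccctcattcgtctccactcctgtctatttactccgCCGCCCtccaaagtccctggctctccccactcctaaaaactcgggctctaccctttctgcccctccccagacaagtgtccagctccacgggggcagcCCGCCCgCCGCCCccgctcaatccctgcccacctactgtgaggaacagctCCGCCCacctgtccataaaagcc

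The 4 windows had little in common. Col3a1 held 1 TATA box and 35.2% G and C, Col5a1 held 2 GC boxes and 76.4%, Col6a3 held none of the motifs and 57.2%, and Col8a1 held 4 GC boxes and 60.8%. RefSeq gave 38 windows for 35 of the collagen genes. Of these, 5 held a TATA box, 13 a CCAAT box and 22 a GC box, against 12.4%, 33.8% and 32.7% of all 32851 windows in the table. The median G and C content was 59% in the collagen windows and 52.4% in all windows. A match describes the letters in the window and not a site in use.

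The largest difference in collagen levels lay between the sets. The 44 genes together measured 17582, 21965, 24154 and 10664 CPM in the Irf1-deleted libraries and 27506, 22039, 34727 and 12820 CPM in the Irf1 controls. They measured 4864, 5228, 6038 and 10349 CPM in the Ikbkb-deleted libraries and 7829, 7201, 6761 and 8013 CPM in the Ikbkb controls. Every Irf1 library was above every Ikbkb library, although the lowest of the Irf1 set, Irf1-deleted replicate 4, and the highest of the Ikbkb set, Ikbkb-deleted replicate 4, came close to each other. As a share of all counts, collagen genes took 2.25% ± 0.789 in the Irf1 set and 0.673% ± 0.191 in the Ikbkb set (SD, n = 8 each).

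**Figure D1:**
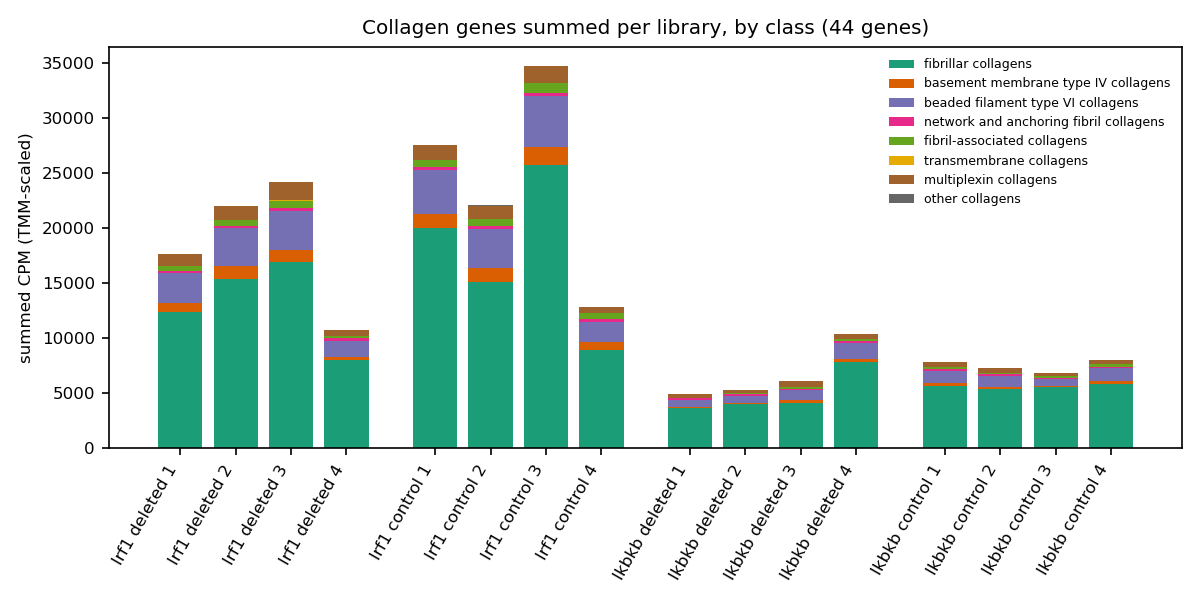
Summed CPM of the 44 collagen genes in each of the 16 libraries (y axis, TMM-scaled CPM), stacked by class, with the libraries of each group side by side. The Irf1 set runs from 10664 to 34727 CPM and the Ikbkb set from 4864 to 10349 CPM, with fibrillar collagens the largest share in each library.

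The makeup of that sum was alike in the main and shifted in the smaller classes. Fibrillar chains made up 71.2% ± 2.36 of collagen CPM in the Irf1 set and 74.2% ± 4.10 in the Ikbkb set. The share of type VI chains was 14.8% ± 0.821 in the Irf1 set and 12.9% ± 1.78 in the Ikbkb set. Type IV chains took 4.69% ± 0.995 in the Irf1 set and 2.72% ± 1.01 in the Ikbkb set, while network and anchoring collagens took 1.30% ± 0.403 in the Irf1 set and 2.47% ± 0.856 in the Ikbkb set. The ranges of the sets overlapped for each of these 4 classes. These are descriptions and were not tested.

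In the fit across all 16 libraries, with edgeR's quasi-likelihood test and Benjamini-Hochberg adjustment, 24 of the 30 tested collagen genes rose in the Irf1 set relative to the Ikbkb set and none fell. Of all 16040 genes tested, 15% were called higher and 13% lower at an adjusted p under 0.05, 28.0% in all. Scaled by the library total alone, 3107 genes were called higher and 1245 lower, where it was 2407 and 2081 with TMM. All 30 members had a positive log2 fold change, where 50.6% of all genes did. The median log2 fold change was 1.88 over the members and 0.01 over all genes. Without each library in turn, 20 to 25 collagen genes were called. In 9 of the 30 the 8 libraries of each set did not overlap, with all of the Irf1 set above, which was so for 2.35% of all genes.

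**Figure D2:**
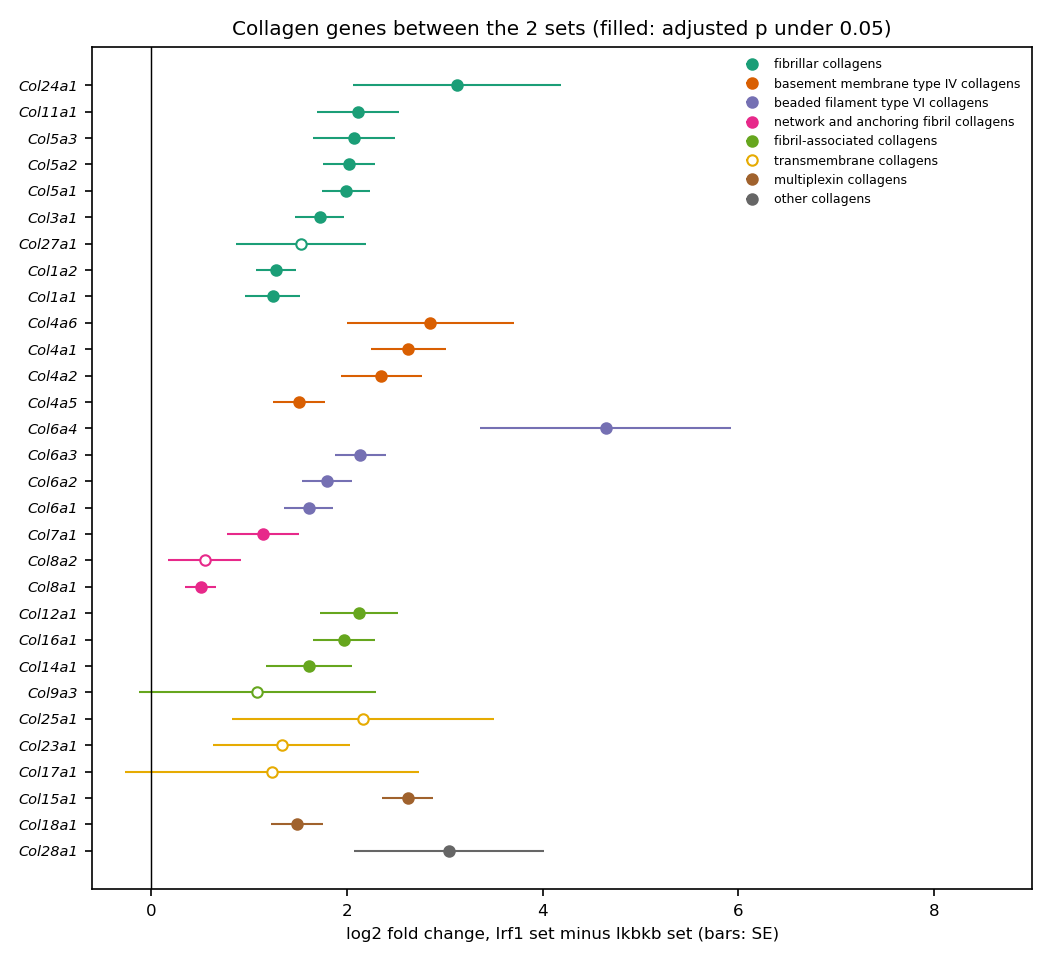
Log2 fold change (x axis, Irf1 set minus Ikbkb set, bars are SE) of the 30 tested collagen genes, grouped and coloured by class, with filled points for an edgeR adjusted p under 0.05. All points lie right of 0, from 0.51 for Col8a1 to 4.65 for Col6a4, and the open points are Col27a1, Col8a2, Col9a3 and the 3 transmembrane collagens.

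Among the fibrillar collagens 8 of 9 tested members rose, with a class median of 1.99. Col3a1 measured 5812, 7737, 7094 and 3447 CPM in the Irf1-deleted libraries and 10475, 5805, 13336 and 3971 CPM in the Irf1 controls. It measured 1598, 1465, 1602 and 2955 CPM in the Ikbkb-deleted libraries and 2355, 2171, 2830 and 2418 CPM in the Ikbkb controls. Each Irf1 library exceeded each Ikbkb library, at a log2 fold change of 1.72 with an SE of 0.25 (edgeR adjusted p = 0.000346). Col5a1 showed the same separation. It had 844, 916, 1302 and 433 CPM in the Irf1-deleted libraries and 958, 1138, 1420 and 744 CPM in the Irf1 controls, against 112, 199, 251 and 355 CPM in the Ikbkb-deleted libraries and 277, 238, 201 and 312 CPM in the Ikbkb controls. Its log2 fold change was 1.99 (SE 0.25, edgeR adjusted p = 0.000205), and that of its partner chain Col5a2 was 2.02 (SE 0.26, edgeR adjusted p = 0.000212).

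The type I chains rose less. Col1a2 had a lowest, median and highest value of 2360, 4643 and 6444 CPM in the Irf1 set and 1312, 1802 and 2651 CPM in the Ikbkb set, a log2 fold change of 1.27 ± 0.20 (SE, with an edgeR adjusted p = 0.000559). Col1a1 had 846, 1938 and 3308 CPM in the Irf1 set and 430.3, 712 and 1584 CPM in the Ikbkb set, with 1.24 (SE 0.28, edgeR adjusted p = 0.00417). Both overlapped between the sets. For Col1a2 the overlap came from Irf1 control replicate 4 and Ikbkb-deleted replicate 4, and for Col1a1 3 Irf1 libraries lay below Ikbkb-deleted replicate 4. The minor fibrillar chains were much lower in level and differed by more. Col11a1, a chain of cartilage and early fibrils, had a log2 fold change of 2.11 (SE 0.42) and Col5a3, the third type V chain, 2.07 (SE 0.42). Col5a3 ran from 53.1 to 214 CPM in the Irf1 set and from 1.99 to 40.8 CPM in the Ikbkb set, with no overlap.

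Col24a1 and Col27a1 are fibrillar chains of bone and cartilage. Col24a1 was counted in all 8 Irf1 libraries, at 2.38 to 9.08 CPM, and in 4 of the 8 Ikbkb libraries, at up to 1.91 CPM, with a log2 fold change of 3.13 ± 1.06 (SE, with an edgeR adjusted p = 0.0384). Col27a1 had 4.89 to 22.3 CPM in the Irf1 set and 0.302 to 12.3 CPM in the Ikbkb set and was not called, at a log2 fold change of 1.53 ± 0.66 (SE, with an edgeR adjusted p = 0.0996). Neither Col2a1, the cartilage collagen, nor Col11a2 passed the filter, with 14 and 72 counts over all libraries.

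All 4 tested type IV chains rose, and the class median of 2.49 was the highest of the classes with more than 2 tested members. Col4a1 measured 527, 720, 644 and 115 CPM in the Irf1-deleted libraries and 718, 783, 956 and 438 CPM in the Irf1 controls, against 51.4, 48.6, 142 and 135 CPM in the Ikbkb-deleted libraries and 151, 90.9, 41.8 and 120.0 CPM in the Ikbkb controls. Apart from Irf1-deleted replicate 4, every Irf1 library was well above every Ikbkb library, and the log2 fold change was 2.63 (SE 0.38, edgeR adjusted p = 0.000352). Col4a2 followed it, with 85.2, 324 and 469 CPM as lowest, median and highest in the Irf1 set and 13.9, 73.2 and 87.8 CPM in the Ikbkb set (log2 fold change 2.35, SE 0.41). The sets touched for Col4a2 through that same Irf1-deleted library alone. The X-linked pair Col4a5 and Col4a6, chains of kidney, skin and smooth muscle basement membranes, had log2 fold changes of 1.52 (SE 0.27) and 2.85 (SE 0.85). Col4a6 ran from 6.50 to 29.7 CPM in the Irf1 set and from 0 to 7.35 CPM in the Ikbkb set. Col4a3 and Col4a4, the chains of the glomerular basement membrane, were nearly silent, with 22 and 17 counts in all.

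All 4 tested type VI chains rose as well. Col6a3, the long chain of the filament, had 550, 766, 896 and 288 CPM in the Irf1-deleted libraries and 909, 868, 1268 and 595 CPM in the Irf1 controls, against 118, 101, 210 and 242 CPM in the Ikbkb-deleted libraries and 230, 156, 119 and 196 CPM in the Ikbkb controls. The sets did not overlap, and the log2 fold change was 2.14 (SE 0.26, edgeR adjusted p = 0.000189). Col6a2 separated the sets too (1.79, SE 0.26), and Col6a1 nearly did (1.61, SE 0.25), with 692 CPM in its lowest Irf1 library and 730 CPM in its highest Ikbkb library. Col6a4 had the largest fitted change at a very low level. It had 22, 241, 57 and 19 counts in the Irf1-deleted libraries and 10, 50, 131 and 4 counts in the Irf1 controls, against 0, 25, 0 and 0 counts in the Ikbkb-deleted libraries and 0, 0, 0 and 2 counts in the Ikbkb controls. Its log2 fold change of 4.65 ± 1.28 (SE, with an edgeR adjusted p = 0.0140) therefore rests on few reads.

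The network and anchoring collagens differed least. Col8a1 measured 172, 182, 191 and 169 CPM in the Irf1-deleted libraries and 215, 231, 227 and 171 CPM in the Irf1 controls, against 101, 201, 96.3 and 199.7 CPM in the Ikbkb-deleted libraries and 121, 150.2, 108 and 119 CPM in the Ikbkb controls. The sets overlapped through Ikbkb-deleted replicates 2 and 4. The log2 fold change was 0.51 (SE 0.16, edgeR adjusted p = 0.0281), and the call was kept in 13 of the 16 fits that each left out 1 library. Col7a1, the anchoring fibril collagen of skin, had 14.7, 45.4 and 72.1 CPM as lowest, median and highest in the Irf1 set and 4.78, 16.01 and 43.5 CPM in the Ikbkb set. Its log2 fold change of 1.15 ± 0.37 (SE, with an edgeR adjusted p = 0.0299) was called in 8 of those 16 fits. Col8a2 was not called (0.55, SE 0.37, edgeR adjusted p = 0.295).

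Of the fibril-associated collagens 3 of 4 tested members rose. Col12a1, which binds the surface of type I fibrils under tension, had 140, 215, 247 and 79.6 CPM in the Irf1-deleted libraries and 251, 189, 316 and 235 CPM in the Irf1 controls, against 12.4, 45.4, 71.4 and 43.6 CPM in the Ikbkb-deleted libraries and 63.7, 55.5, 9.25 and 76.7 CPM in the Ikbkb controls. The sets did not overlap, though the gap was narrow, and the log2 fold change was 2.13 (SE 0.40, edgeR adjusted p = 0.00139). Col16a1 had a log2 fold change of 1.97 (SE 0.32) and Col14a1 1.61 (SE 0.44). Col14a1 was uneven within the Ikbkb set, at 50.1 CPM in Ikbkb control replicate 3 and at most 13.3 CPM in the other libraries of that set.

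Both multiplexins, basement membrane proteins that carry sugar chains, rose. Col15a1 measured 22.7, 58.4, 50.8 and 31.2 CPM in the Irf1-deleted libraries and 62.6, 74.1, 87.8 and 59.0 CPM in the Irf1 controls, against 4.99, 4.59, 13.4 and 7.23 CPM in the Ikbkb-deleted libraries and 11.1, 7.86, 8.36 and 13.2 CPM in the Ikbkb controls. It had the smallest p of the family in this comparison, with no overlap between the sets and a log2 fold change of 2.62 ± 0.26 (SE, with an edgeR adjusted p = 0.000136). Col18a1 had 467, 1169.8 and 1582 CPM as lowest, median and highest in the Irf1 set and 230.0, 390.3 and 526 CPM in the Ikbkb set (log2 fold change 1.49, SE 0.26, edgeR adjusted p = 0.000988). Its sets overlapped through Irf1-deleted replicate 4 and Irf1 control replicate 4.

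None of the 3 tested transmembrane collagens was called. Col23a1 ran from 2.30 to 17.5 CPM in the Irf1 set and from 0 to 9.51 CPM in the Ikbkb set (log2 fold change 1.34, SE 0.70, edgeR adjusted p = 0.172). Col17a1, the hemidesmosome collagen of epithelial cells, was counted in 9 of 16 libraries and had its highest value, 16.2 CPM, in Irf1-deleted replicate 3. That library also held 829 CPM of keratinocyte markers, where the other 15 held between 9.08 and 94.6 CPM. Col28a1, a collagen of nerve sheaths, was called at a low level, with 1.56 to 18.2 CPM in the Irf1 set and 0 to 4.29 CPM in the Ikbkb set (log2 fold change 3.04, SE 0.97, edgeR adjusted p = 0.0292).

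**Figure D3:**
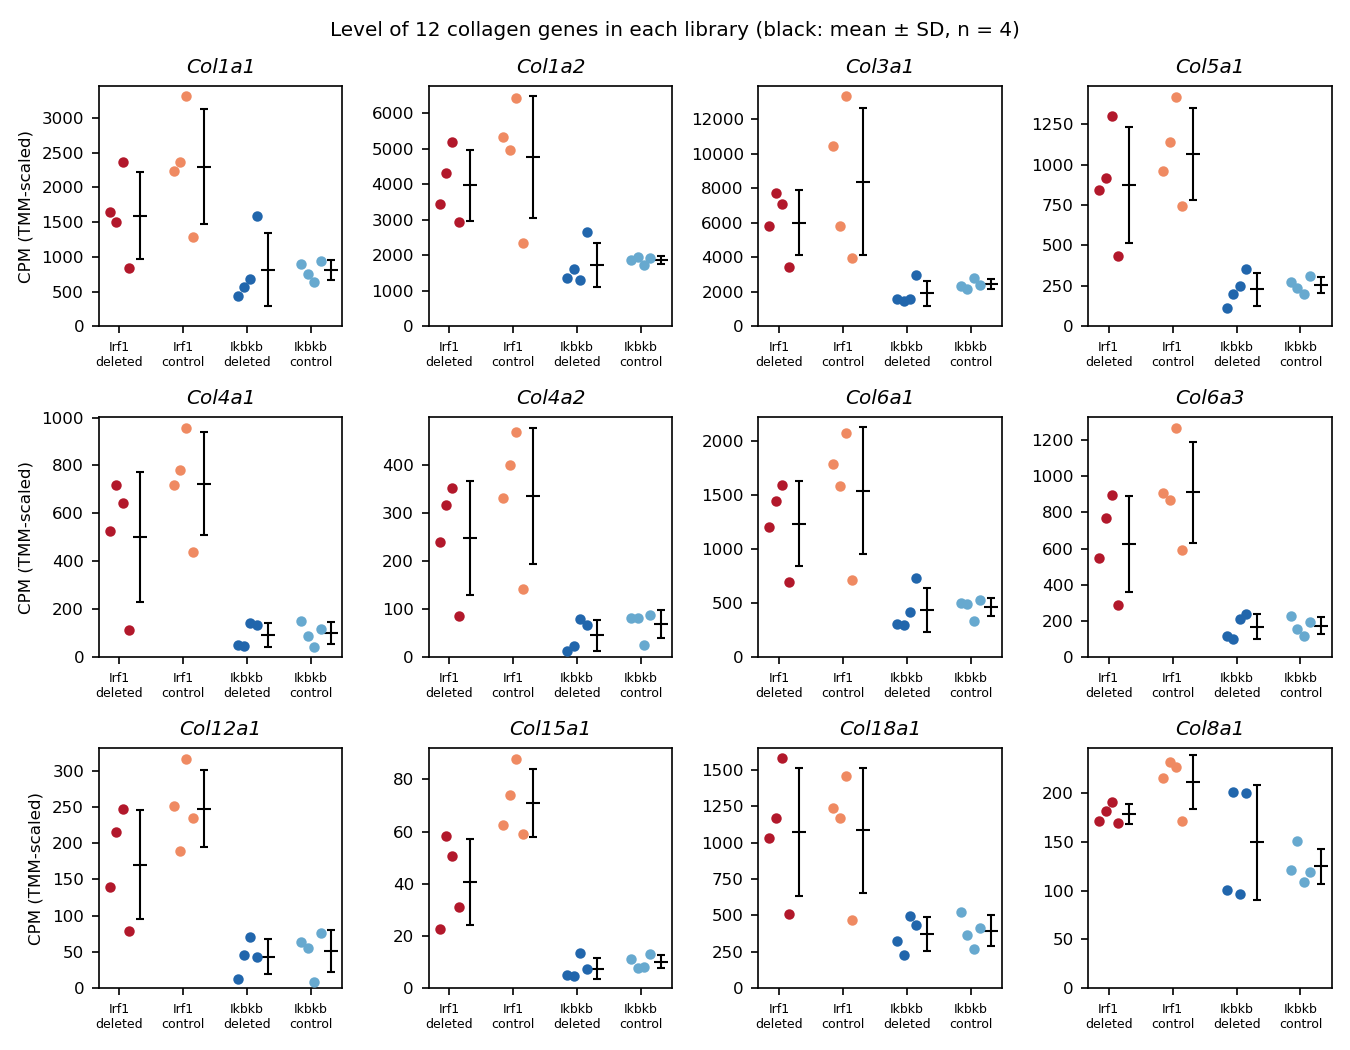
Level of 12 collagen genes (y axes, TMM-scaled CPM from 0) in each library, with the 4 groups along the x axis and the mean ± SD of each group of 4 in black. The Irf1 libraries lie above the Ikbkb libraries for most genes, Irf1-deleted replicate 4 is often the lowest of its set (115 CPM for Col4a1), and Col8a1 overlaps between the sets.

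Libraries tended to be high or low for many members at once. Among the 24 members with a mean of at least 5 CPM, Irf1 control replicate 3 had the highest level of all 16 libraries for 17. Within the Irf1 set, Irf1-deleted replicate 4 was the lowest for 20 of the 24. Within the Ikbkb set, Ikbkb-deleted replicate 4 was the highest for 12, while Ikbkb-deleted replicates 1 and 2 were each the lowest for 7. The members are measured in the same libraries and are not independent of each other.

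The set difference also ran with transcript length. The tested collagen genes are long, with a median of 7542.5 bp of merged exons and 49.5 exons in the longest transcript, against 3927 bp and 6 exons over the genes tested. Among the other genes tested, the median log2 fold change was -0.34 below 2000 bp, -0.11 from 2000 to 4000 bp, 0.11 from 4000 to 6000 bp, 0.24 from 6000 to 8000 bp and 0.55 from 8000 bp up. The share called higher was 3.28% in the shortest of these bins and 35.6% in the longest. Non-collagen genes of at least 6000 bp took 23.3% to 28.8% of the counts in the Irf1 set and 19.5% to 22.3% in the Ikbkb set, with no overlap. Collagen genes lay above the other genes of their length: the median was 1.97 for the 13 of 6000 to 8000 bp and 2.01 for the 12 of 8000 bp and more.

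Removing a smooth trend on length from each library, a setting chosen after seeing the data, lowered the members' median log2 fold change to 1.43 and left 21 of 30 called higher, where 9.88% of all genes were. With a trend on G and C content removed as well, the median was 1.27 and 18 of 30 were called higher, against 8.87% of all genes. These settings also turned the split of all calls: 1585 of 3781 and 1423 of 3393 called genes were higher, where it was 2407 of 4488 before. All 30 members kept a positive log2 fold change under both. The 3 calls lost with length removed were Col7a1 (0.62, edgeR adjusted p = 0.223), Col8a1 (0.14, edgeR adjusted p = 0.580) and Col24a1 (2.73, edgeR adjusted p = 0.0734). With G and C content removed too, Col1a1 (0.63, edgeR adjusted p = 0.0898), Col1a2 (0.46, edgeR adjusted p = 0.0933) and Col4a6 (2.35, edgeR adjusted p = 0.0569) were no longer called either. Col15a1 stayed at 2.36 with length removed and at 2.14 with both, and Col4a1 at 2.27 and 1.98.

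**Figure D4:**
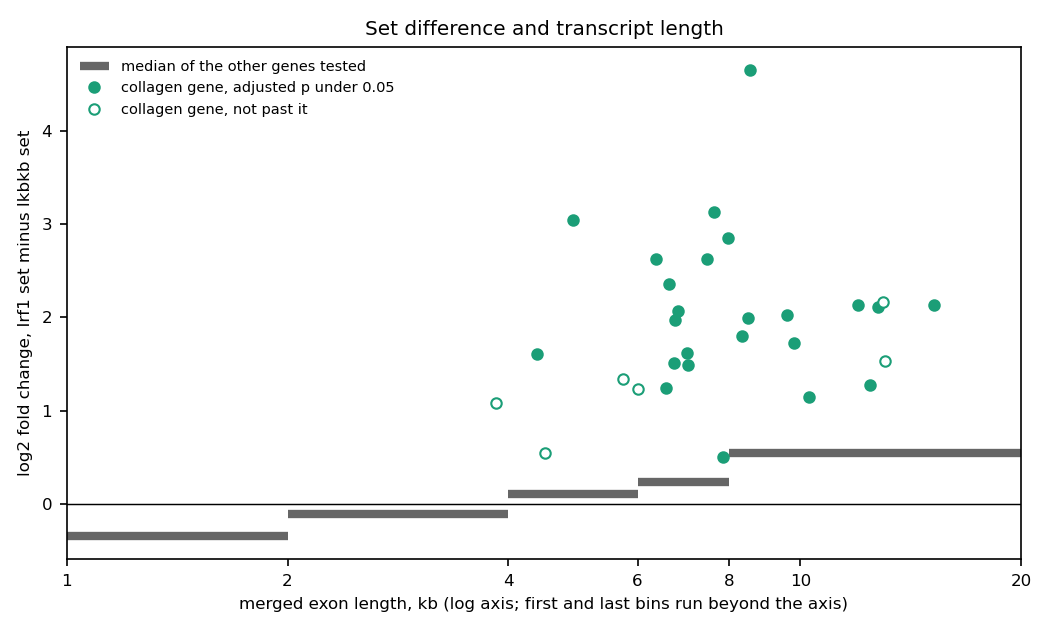
Log2 fold change between the sets (y axis, Irf1 set minus Ikbkb set) against merged exon length in kb (x axis, log scale), with a point per tested collagen gene, filled at an edgeR adjusted p under 0.05, and grey bars for the median of the other genes tested in each length bin. The grey bars climb with length, to 0.55 in the last bin, and 28 of the 30 collagen points lie above 1.

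Markers of stromal cells moved with the collagens in part, and with smaller list medians. Of the 10 fibroblast markers 8 had a positive log2 fold change. Clec3b (-0.69, SE 0.61) and Dpt (-0.33, SE 0.22) were negative and not called. The 10 fibroblast markers summed to 1256 to 2480 CPM in the Irf1 set and 736 to 1340 CPM in the Ikbkb set, with a median log2 fold change of 0.39. Of the 10, 3 rose, where 15% of all genes did. These were Pdgfra (1.05, SE 0.19) and Pdgfrb (1.29, SE 0.20), receptors for platelet-derived growth factor, and Lum (1.42, SE 0.26), a proteoglycan of collagen fibrils. Dcn, decorin, another such proteoglycan, measured 609 ± 127 CPM in the Irf1 set and 476 ± 139 CPM in the Ikbkb set and was not called (0.37, SE 0.16, edgeR adjusted p = 0.101). Collagen CPM per CPM of fibroblast markers was 11.9 ± 2.35 in the Irf1 set and 6.76 ± 1.43 in the Ikbkb set (SD, n = 8 each). The sets overlapped through Irf1-deleted replicate 4 alone, at 7.04, while the other 7 Irf1 libraries ran from 10.2 to 14.003, above the highest Ikbkb library at 9.14.

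Endothelial markers summed to 80.5 to 174.5 CPM in the Irf1 set and 19.5 to 78.8 CPM in the Ikbkb set, and 5 of 8 rose with a list median of 1.44, among them Pecam1 (1.54, SE 0.33) and Cdh5 (1.82, SE 0.44). Tek, an endothelial receptor, was near 0 in the Ikbkb set, at 0.0919 ± 0.193 CPM, and at 4.39 ± 3.42 CPM in the Irf1 set. Of 8 pericyte and smooth muscle markers 4 rose and 1, Des, fell, with a list median of 1.20. The 4 were Myh11 (7.14, SE 1.74, at a low level), Rgs5 (2.10, SE 0.66), Mcam (1.57, SE 0.31) and Cspg4 (0.83, SE 0.20). Summed levels were 319 to 716 CPM in the Irf1 set and 246 to 724 CPM in the Ikbkb set. Acta2 gave the largest part, at 324 ± 103 CPM in the Irf1 set and 276 ± 132 CPM in the Ikbkb set, and was not called. None of the 8 cDC1 markers (median -0.85) and none of the 8 macrophage markers (median -0.23) was called by edgeR, while 1 of the 8 T and NK cell markers and 5 of the 7 tested skeletal muscle markers fell, Des among them. Of the 3 tested melanoma markers 1 rose, Mitf (0.91, SE 0.31). Of the 7 tested keratinocyte markers 1 rose, Krt5 (5.34, SE 1.51), at an uneven 22.7 ± 56.0 CPM in the Irf1 set. Of all genes tested, 15% were called higher and 13% lower between the sets. A single call in a list of 7 or 8 markers lies near that share. The part of these cell types and of transcript length in the collagen difference was not tested.

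The set difference was present among controls and among deleted libraries, in comparisons that share their libraries with the one above. Between the Irf1 controls and the Ikbkb controls 19 of 30 collagen genes rose and none fell, at a median log2 fold change of 2.08, where 6.74% of all genes were called higher and 5.84% lower. In 23 of the 30 the 4 Irf1 controls all lay above the 4 Ikbkb controls, as for 10.3% of all genes. With length and G and C trends removed 9 of 30 were called higher, and 2.49% of all genes, when 400 of the 1138 genes called were higher, where it was 1081 of 2018 before. Between the Irf1-deleted and the Ikbkb-deleted libraries 13 of 30 rose, at a median of 1.60, where 5.04% of all genes were called higher, and 14 did not overlap, as for 9.02% of all genes. The count of 13 depended on single libraries: it was 2 without Irf1-deleted replicate 3, 6 without Irf1-deleted replicate 2, 7 without Ikbkb-deleted replicate 2 and 8 without Ikbkb-deleted replicate 1. Calls over all genes moved as well, from 110 to 1776 without each library in turn. The collagen count was 3 with length and G and C trends removed, when 1.66% of all genes were called higher and 267 of the 638 genes called were higher, where it was 808 of 1376 before. Scaled by the library total alone, 1055 of 1286 called genes were higher between the deleted groups and 1548 of 1934 between the control groups.

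Values for the same genes show the spread between these comparisons. Col15a1 had a log2 fold change of 2.43 between the deleted groups and 2.81 between the control groups. Col4a5 had 1.09 between the deleted groups, not called (edgeR adjusted p = 0.0783), and 1.94 between the control groups, called (edgeR adjusted p = 0.00823). For Col1a1 the values were 0.97 (edgeR adjusted p = 0.133) between the deleted groups and 1.51 (edgeR adjusted p = 0.0238) between the control groups.

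Ratios between chains of 1 collagen type were close between the sets for some pairs and apart for others. The ratio of Col1a1 to Col1a2, in CPM/kb, was 0.834 ± 0.162 in the Irf1 set and 0.826 ± 0.186 in the Ikbkb set, and that of Col5a1 to Col5a2 was 1.77 ± 0.287 in the Irf1 set and 1.77 ± 0.290 in the Ikbkb set. Col4a1 to Col4a2 stood at 1.88 ± 0.438 in the Irf1 set and 1.72 ± 0.692 in the Ikbkb set. Within type VI the means lay further apart. Col6a1 to Col6a2 was 2.60 ± 0.261 in the Irf1 set and 3.03 ± 0.348 in the Ikbkb set, and Col6a3 to Col6a1 was 0.204 ± 0.046 in the Irf1 set and 0.140 ± 0.025 in the Ikbkb set. Among the other type IV pairs, Col4a5 to Col4a1 was 0.231 ± 0.142 in the Irf1 set and 0.458 ± 0.157 in the Ikbkb set, and Col4a6 to Col4a5 was 0.131 ± 0.058 in the Irf1 set and 0.051 ± 0.054 in the Ikbkb set. Col8a1 to Col8a2 was 8.34 ± 3.02 in the Irf1 set and 10.3 ± 8.44 in the Ikbkb set, where Ikbkb control replicate 3 stood at 30.3. The ranges of the sets overlapped for each pair, and the differences were not tested. Col6a3 has 11963 bp of merged exons and Col6a1 4380 bp, and the part of length in their ratio was not tested.

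Genes that modify, trim and bind collagen were looked at as 3 lists. Of 18 collagen-modifying enzymes and chaperones, 9 rose between the sets and 2 fell, with a median log2 fold change of 0.78. Of all genes tested, 15% rose and 13% fell. The prolyl 3-hydroxylases P3h3 (1.32, SE 0.25) and P3h1 (1.23, SE 0.16), Mia3, which loads procollagen into transport carriers (1.12, SE 0.21), and the lysyl hydroxylase Plod3 (1.098, SE 0.17) had the largest called changes. P4hb, a subunit of prolyl 4-hydroxylase that also folds many other proteins, fell at 1973 ± 369 CPM in the Irf1 set and 2841 ± 416 CPM in the Ikbkb set (-0.53, SE 0.14, edgeR adjusted p = 0.0105), and so did the cyclophilin Ppib (-0.43, SE 0.10). Serpinh1, the collagen chaperone HSP47, measured 1818 ± 468 CPM in the Irf1 set and 2158 ± 515 CPM in the Ikbkb set and was not called (-0.24, SE 0.19, edgeR adjusted p = 0.360). P4hb and Serpinh1 are short, with 2861 and 2443 bp of merged exons. In the same list Crtap, with 1772 bp (0.75, SE 0.17), and Fkbp10, with 2935 bp (0.65, SE 0.22), rose. P3h4, with 2178 bp, was not called (-0.0007, SE 0.20). The part of length in these changes was not tested.

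Of 13 genes of procollagen processing and cross-linking 11 were tested and 9 rose, with a median of 1.23. Lox, which starts the cross-links (2.45, SE 0.55), and Bmp1, which cuts the C-propeptides (1.999, SE 0.21), were among them, as was Adamts2, which cuts the N-propeptides (1.91, SE 0.37). Tll1, a relative of Bmp1, had the largest fitted change (4.73, SE 1.141) at 1.51 ± 1.84 CPM in the Irf1 set and 0.0493 ± 0.0673 CPM in the Ikbkb set. Of 11 collagen receptors and uptake genes 10 were tested and 7 rose, with a median of 1.30. These included the integrin chains Itga1 (1.64, SE 0.19) and Itga2 (1.42, SE 0.45) and the uptake receptor Mrc2 (1.40, SE 0.26). The largest fitted changes were those of Itga11 (4.98, SE 1.11) and Itga10 (2.39, SE 0.59). Both were low, at 2.23 ± 1.84 and 1.37 ± 1.24 CPM in the Irf1 set. Lair1, an inhibitory collagen receptor of immune cells, had a log2 fold change of -1.12 (SE 0.48) and was not called.

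Within each set, deletion of the floxed gene was compared with its controls. After Irf1 deletion no collagen gene was called by edgeR, nor by DESeq2 or limma voom, and 0% of all 16040 genes were called by edgeR. At an unadjusted p under 0.05 there was 1 member, against 2.61% of all genes. The log2 fold change was positive in 2 of 30 members, against 48.2% of all genes, and the members' median was -0.47 against -0.02. That median moved to -0.21, with 7 of 32 positive, without Irf1-deleted replicate 4 and to -0.22, with 5 of 31 positive, without Irf1 control replicate 3, the libraries at the low and high ends of the set. With the length trend removed 5 of 30 were positive, at a median of -0.35.

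The 3 members with the smallest p were Col15a1, Col9a3 and Col6a3. Col15a1, with the values given above, was lower in each Irf1-deleted library than in any Irf1 control, at a log2 fold change of -0.80 ± 0.35 (SE, with an edgeR adjusted p = 1). It was the only member of 30 without overlap on the lower side, where 1.63% of all genes lay, and no member was without overlap on the higher side, where 1.26% lay. Col9a3, a chain of cartilage fibrils, had 0.137, 0, 0.593 and 0 CPM in the Irf1-deleted libraries and 0.559, 1.74, 0.723 and 4.06 CPM in the Irf1 controls (-3.26, SE 1.79). Those groups overlapped, and so did those of Col6a3 (-0.54, SE 0.36). The summed collagen level was 18591 ± 5949 CPM in the Irf1-deleted libraries and 24273 ± 9236 CPM in the Irf1 controls, which differ by less than their SD.

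After Ikbkb deletion no collagen gene was called by edgeR, DESeq2 or limma voom either, and 0% of all genes were called by edgeR. The members lay on both sides, with 15 of 30 positive, where 47.8% of all genes were, and a median of -0.03. The sign of that median depended on single libraries, from -0.21 without Ikbkb-deleted replicate 3 to 0.12 without Ikbkb-deleted replicate 1, with 12 to 22 members positive, and limma voom gave 10 of 30 positive at a median of -0.29. In no member did the deleted and control libraries separate, which 0.754% of all genes did on the higher side and 0.948% on the lower. At an unadjusted p under 0.05 there was 1 member, Col14a1, against 4.79% of all genes. Col14a1 had 8.2998, 7.06, 5.36 and 2.69 CPM in the Ikbkb-deleted libraries and 7.48, 13.3, 50.1 and 11.8 CPM in the Ikbkb controls, which overlapped, at -1.82 (SE 0.62, edgeR adjusted p = 0.973). Without Ikbkb control replicate 3 it was -0.90. Col6a4 rests on 25 counts in the Ikbkb-deleted libraries, all in replicate 2, and 2 in the Ikbkb controls, a ratio per total count of 12.6 with an exact 95% interval of 3.15 to 110.1 that covers counting error only. Col9a3 had 0, 0, 0.212 and 2.59 CPM in the Ikbkb-deleted libraries and 0, 0, 0.210 and 0.187 CPM in the Ikbkb controls (2.78, SE 1.80). The summed level was 6620 ± 2534 CPM in the Ikbkb-deleted libraries and 7451 ± 577 CPM in the Ikbkb controls.

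**Figure D5:**
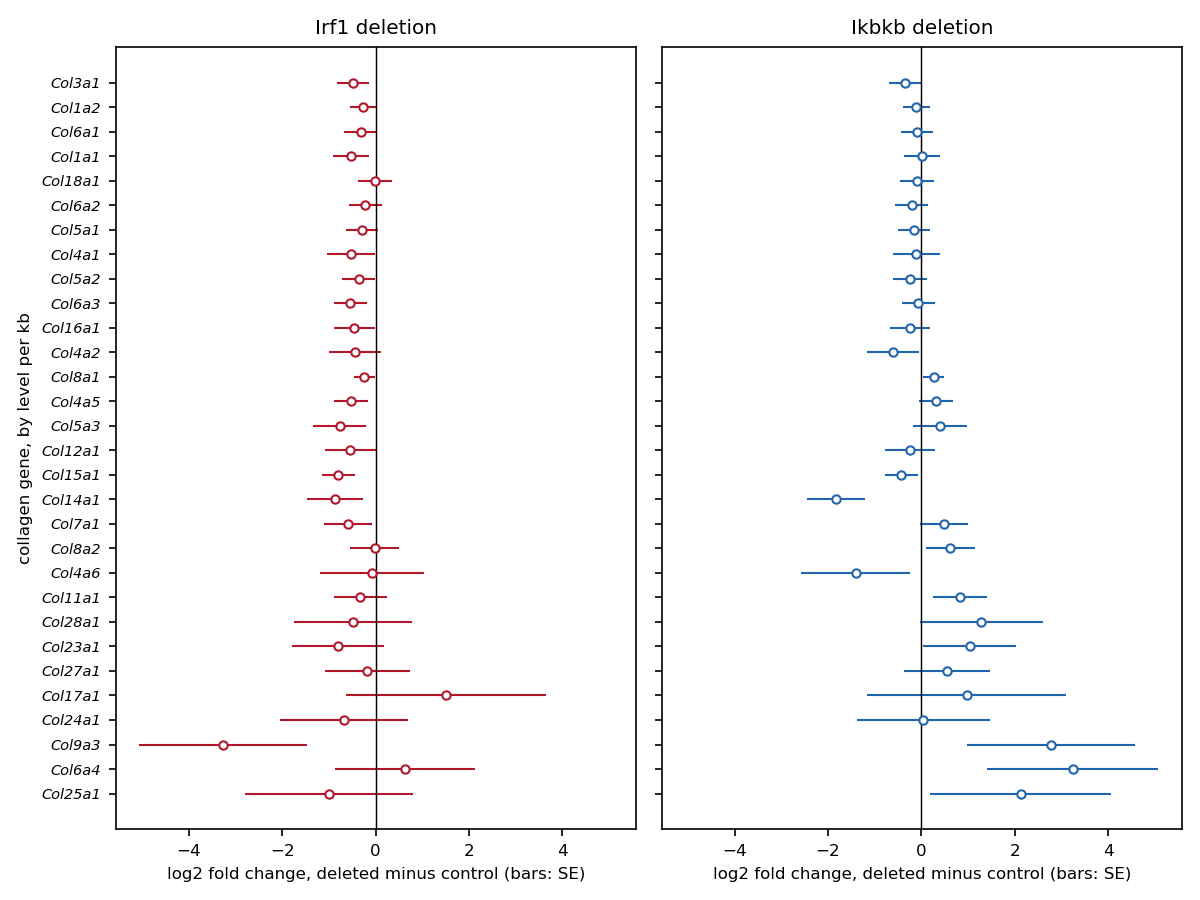
Log2 fold change of the 30 tested collagen genes after Irf1 deletion (left) and Ikbkb deletion (right), deleted minus control, with SE bars, ordered down the page by level per kb; open points mean that none passed an edgeR adjusted p under 0.05. On the left 28 of 30 points lie below 0, and on the right 15 of 30 lie above it.

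The difference between the deletions, Irf1 minus Ikbkb, called no collagen gene and 0% of all genes by edgeR, and limma voom and DESeq2 called no collagen gene. At an unadjusted p under 0.05 there was 1 member, Col9a3 (-6.05, SE 2.54), against 2.84% of all genes. Col4a5 (-0.84, SE 0.52) and Col8a1 (-0.50, SE 0.32) came next, and 5 of 30 members were positive, where 53.5% of all genes were. That count was not stable: it was 13 of 30 under limma voom, and leaving out 1 library gave 3 to 14. It was 14 of 32 without Ikbkb-deleted replicate 4, 12 of 30 without Ikbkb-deleted replicate 3, 11 of 32 without Irf1-deleted replicate 4 and 11 of 31 without Irf1 control replicate 3. It was 9 of 32 without Ikbkb control replicate 3, 8 of 32 without Irf1 control replicate 1, and 3 without Irf1-deleted replicate 3 or Ikbkb control replicate 1. The fibroblast markers gave no call in either deletion, with medians of -0.31 after Irf1 deletion and -0.48 after Ikbkb deletion, and no gene of the 3 collagen lists was called by edgeR. Among these was Lox, at 45.6 ± 14.5 CPM in the Irf1-deleted libraries and 147 ± 137 CPM in the Irf1 controls (-1.69, SE 0.76, edgeR adjusted p = 1).

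The 14 members under the filter held few reads. Col10a1, the collagen of growth plate cartilage, had the most, 157 counts over all libraries, but 61 of them in Ikbkb-deleted replicate 3 and 57 in Ikbkb control replicate 2. Col13a1, a transmembrane collagen of muscle and nerve junctions, had 27 of its 45 counts in Irf1 control replicate 1 and 17 in Irf1-deleted replicate 3. The cartilage and basement membrane zone members Col9a1 and Col19a1, and Col26a1, had 3, 4 and 2 counts, all in Ikbkb control replicate 4. That library had counts in 12 of the 14, where the other 15 libraries had counts in 1 to 6, and in 45.4% of all 16657 genes under the filter, where the others had 22.3% to 33.7%.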

How the data were processed

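RNA-seq was done on 16 libraries, with full-length cDNA and tagmentation libraries per the labels' protocols. The authors deposited 1 table of raw counts per Ensembl gene, counted with HTSeq 0.6.1p1 after alignment to mm10 with STAR 2.5.3a, adapter trimming with cutadapt and demultiplexing with bcl2fastq, per the submitters' processing notes. The annotation release and strand setting are not given in the sources used here. Of 32697 genes, 32684 matched a GENCODE M21 symbol. Depth was 16478671 to 27433818 counts. In R 4.3.3, edgeR 4.0.16 (filterByExpr with a minimum count of 10 and total of 15, TMM, a quasi-likelihood fit of 4 group means over all 16 libraries, Benjamini-Hochberg over 16040 genes, called under 0.05) was tested on simulated data. Alternatives were RLE, upper-quartile and total scaling, other filters, DESeq2 1.42.0, limma 3.58.1 voom, a minimum 1.5-fold change, 1 set alone, leaving out each library and, added later, length and G and C trends. Members and lists were chosen with earlier results of these data known. Named were, by class, the most abundant members and the called members with a mean of at least 5 CPM. For contrasts without calls, the 3 members with the smallest p were named. Genes of the lists were named in part, and not always those with the largest change. Col6a4, Col24a1, Col27a1, Col28a1 and the genes named to complete a class, list or contrast were added after their values were seen. Replicate numbers follow the order of the record and pair no libraries. Protein sequences were not used here.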

Additional observations from a re-analysis of the deposited data

Results flagged for a closer look

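Levels of the 24 members with a mean of at least 5 CPM were compared within each group of 4 libraries on the log2 scale, 96 groups in all, and a library was listed where its gap to the next divided by the group's range exceeded Dixon's 95% critical value; chance lists about 1 in 20 groups. There were 7 such values, and 5 of them belong to the same library. Ikbkb control replicate 3 was low for Col6a1 at 338 CPM, where the other Ikbkb controls had 497 to 531 CPM, and for Col5a2 at 101 CPM, where they had 190 to 200 CPM. It was low for Col4a5 at 13.1 CPM (others 36.6 to 44.7 CPM), for Col4a2 at 25.7 CPM (others 82.1 to 87.8 CPM) and for Col12a1 at 9.25 CPM (others 55.5 to 76.7 CPM). The same library held the highest cDC1 and T and NK cell marker sums of its group, 4002 and 1163 CPM. Its fibroblast, endothelial and skeletal muscle marker sums, 1340, 78.8 and 774 CPM, were the highest of the group too. Its macrophage, pericyte and smooth muscle, and melanoma marker sums, 6512, 246 and 5.05 CPM, were the lowest. It was not low for every member, since it was the highest Ikbkb control for Col3a1 and Col14a1. The part of these cell types in its collagen levels was not tested.

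Ikbkb-deleted replicate 4 was high for Col3a1 at 2955 CPM, where the other Ikbkb-deleted libraries had 1465 to 1602 CPM. Irf1-deleted replicate 4 was low for Col4a1 at 115 CPM, where the other Irf1-deleted libraries had 527 to 720 CPM.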

How the results depend on the processing

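No paired analysis was possible because the labels give no replicate numbers that the groups share. Calls of collagen genes between the sets stayed between 17 (minimum 1.5-fold change) and 26 (limma voom), where the main fit gave 24. Of all 16040 genes, 686 were called higher at a minimum 1.5-fold change, 3533 by limma voom and 2407 in the main fit. No collagen gene was called for either deletion or their difference under any setting. Between control groups 2 were called at a minimum 1.5-fold change and 9 with length and G and C trends removed, and 13 to 19 without each library in turn; between deleted groups these counts were 0, 3 and 2 to 15. Over all genes, DESeq2 called 38 after Ikbkb deletion, 6 after Irf1 deletion and 12 for their difference, and leaving out a library gave 0 to 1, 0 to 0 and 0 to 1. Between the sets 882 genes passed a minimum 1.5-fold change, and 3506 to 4809 were called without each library. Between control groups there were 2018 calls, against 1199 without a filter, 33 at a minimum 1.5-fold change, 3146 by DESeq2, 4130 by limma voom, 1138 with both trends removed and 782 to 2404 without each library. Between deleted groups there were 1376, against 718, 4, 2477, 2990, 638 and 110 to 1776 under the same settings. The causes were not tested.

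Log2 fold changes of the collagen genes picked by the naming rules were followed over the settings. Of these, 2 turned sign, both after Ikbkb deletion and never called. Col6a4 was -2.54 without Ikbkb-deleted replicate 2 (highest 5.78, without Ikbkb control replicate 4). Col9a3 was -0.43 without Ikbkb-deleted replicate 4 (highest 3.45, without Ikbkb control replicate 3). Values of other genes were not part of this check. The members' median after Ikbkb deletion changed sign too, as given above. Scaling by the library total moved the median of all genes between the sets to 0.16, with all 30 members still positive. The trend settings were chosen after seeing the data. Counts of a few reads limit Col6a4, Col9a3 and the members under the filter.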
